A study of Mus musculus with 4 samples.

Results

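Netrins and Slits are secreted guidance cues, and the genes described here encode cues and receptors of both families: the netrins Ntn1 and Ntn4, the netrin receptors Neo1, Unc5b and Unc5c, the Slit ligands Slit2 and Slit3, and the Slit receptors Robo1 and Robo2. They are 9 of the 23930 amplicons in the table, matched by the symbol in the amplicon name, and each has 1 row. The 9 genes were chosen by name and selected with the values of the same mutant and control libraries already known, so their fold changes and calls below are a description of these libraries and carry no test.

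Netrins bind receptors of the Dcc and neogenin class, which attract or hold a growing axon or migrating cell, and receptors of the Unc5 class, which repel it. Slits bind Robo receptors, mostly as a repellent signal, and both systems also act outside the nervous system, in blood vessels, cartilage, bone and connective tissue. In bone, netrin-1 and Slit3 are known as signals that pass between osteoblasts, osteoclasts, nerves and vessels.

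Messenger RNA was measured in progenitor cells of subcutaneous tissue from C57BL/6 mice that carry a floxed Gnas gene, the gene of the stimulatory G protein alpha subunit. Cells infected with Ad-GFP, labelled wild type, formed the control group (2 libraries), and cells infected with Ad-Cre, labelled Gnas-/-, formed the mutant group (2 libraries). All cells were then kept for 7 days in osteogenic medium. The virus differs between the groups together with the genotype, and the effects of the 2 cannot be told apart. The labels give neither age nor sex of the mice. They also leave unsaid whether each library is a mouse or culture of its own. Every p-value below thus measures only the spread between these libraries, which may be technical in part. Expression of Gnas was not analysed here, and so the genotype labels were not checked by the targeted gene.

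The genomic sequences that link these genes are shown first. Slit2 and Slit3 each carry a copy of the miR-218 gene in an intron. On GRCm38 the copy in Slit2 has its 5p arm on chromosome 5 at 48223966 to 48223986 (plus strand), and the copy in Slit3 has it on chromosome 11 at 35616840 to 35616860 (plus strand). None of the annotated coding transcripts of either host had an exon there. The mature 5p arms (RefSeq, GRCm38.p6) are identical in both copies, whereas the 3p arms differ in sequence and in seed, the bases from position 2 to position 8 that are in capitals here.
mmu-miR-218-5p: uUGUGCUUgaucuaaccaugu
mmu-miR-218-1-3p: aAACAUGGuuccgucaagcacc
mmu-miR-218-2-3p: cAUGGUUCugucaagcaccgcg

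The match to the shared 5p seed, AAGCACA, was searched on the sense strand of the longest annotated 3′ untranslated region (GENCODE M21). It was present in 5 of the 9 genes: Robo1, Robo2, Neo1, Slit2 and Ntn4. Over all 21022 genes with such a region, 13.8% held it. Among genes within 20% of its length it was 18.1% for Robo1, 37.3% for Robo2, 24.1% for Neo1, 32.9% for Slit2 and 13.2% for Ntn4. For the genes without a match it was 35.1% for Ntn1, 24.5% for Unc5b, 49.8% for Unc5c and 3.14% for Slit3. The matches in the Robo receptors and in Neo1 are printed with their flanks, the 7 matching bases in capitals. These matches are letters in a sequence, and miR-218 was not analysed here.
Robo1: ttttttggttttaaAAGCACAa
Robo2, first match: ttttatttggtgatAAGCACAa
Robo2, second match: gtcacggcagacccAAGCACAg
Neo1: tctgagaagctacaAAGCACAg

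Promoter sequences were available for 8 of the 9 genes (10 windows of 300 bases, RefSeq, GRCm38.p6; Ntn1 was not matched). None of the 10 held the full cyclic AMP response element TGACGTCA or the Gli motif TGGGTGGTC on either strand, which 1.79% and 0.253% of all 32851 windows held. The response element's half-site TGACG, which lies within the full element, was in the Unc5c window alone, against 20.8% of all windows. The GC box CCGCCC was in 5 of the 10 (Neo1, Unc5b, Ntn4, Slit2 and Slit3), against 35.7% of all. Neo1 and Unc5b are shown because they encode netrin receptors of opposite known effect and stood on opposite sides of the comparison. The 250 bases before each start site are printed on the gene's own strand, which is minus for both, with the GC boxes in capitals. The Neo1 stretch, chr9:59036442-59036691, held 45 CpG and the Unc5b stretch, chr10:60831582-60831831, held 27.
Neo1: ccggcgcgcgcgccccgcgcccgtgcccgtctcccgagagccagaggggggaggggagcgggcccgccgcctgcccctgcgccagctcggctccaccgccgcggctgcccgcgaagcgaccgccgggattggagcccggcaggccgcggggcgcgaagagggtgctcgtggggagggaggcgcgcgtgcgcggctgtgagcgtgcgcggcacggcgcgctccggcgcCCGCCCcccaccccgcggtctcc
Unc5b: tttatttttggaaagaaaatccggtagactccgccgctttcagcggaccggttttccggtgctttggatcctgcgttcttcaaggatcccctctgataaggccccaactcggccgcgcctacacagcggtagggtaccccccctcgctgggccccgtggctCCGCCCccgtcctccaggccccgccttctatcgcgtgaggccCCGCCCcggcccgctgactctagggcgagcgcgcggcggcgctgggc

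Values are in RPM, that is, an amplicon's reads after each library was brought to the same total. The libraries held 13483518 to 18455811 reads, so that 1 read was worth 0.0542 to 0.0742 RPM. The 2 controls stood further apart than the 2 mutants: over the tested genes 507 differed by more than 4-fold between the controls and 11 between the mutants. Control 2 held 967 RPM of 12 macrophage markers in sum, against 50.4 in control 1 and 16.9 to 30.2 in the mutants. It was also the library without a read of Xist, the RNA of the inactive X chromosome, which stood at 165 RPM in control 1 and at 395 and 419 RPM in the mutants. Ddx3y, from the Y chromosome, read 61.4 and 124 RPM in controls 1 and 2, above the 26.9 and 12.5 RPM of mutants 1 and 2. Control 1 and both mutants thus held reads of both genes, and control 2 of Ddx3y alone. The 2 controls were therefore not the same mix of cells. Xist was higher and Ddx3y lower in both mutants, and differences between the donors of the cells cannot be told apart from the genotype. Log2 fold changes of the 9 genes are therefore also given against each control alone, and those of other genes where the size or the call turned on it. The 11 stromal markers with a row summed to 16409 and 22445 RPM in controls 1 and 2 and to 34701 and 38764 RPM in mutants 1 and 2. Col1a1 was the largest part of these sums, at 5332 and 9875 RPM in the controls and 16666 and 21009 RPM in the mutants. Pdgfrb, Vim, Ly6a and Dpp4 overlapped between the groups. The cells carried the stromal genes Pdgfra (92.1 to 128 RPM), Pdgfrb, Thy1 and Col1a1 in every library. Of the surface markers of subcutaneous progenitors, Dpp4 stayed at or below 1.19 RPM, Cd34 stood at 0.054 RPM in control 1 and at 7.19 to 12.6 RPM in the other libraries, and Ly6a stood between 537 and 1162 RPM.

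The netrin ligands stood higher in both mutant libraries. Ntn1 encodes netrin-1, the founding member of the family. Its amplicon read 9.86 RPM in control 1 and 8.08 in control 2, against 66.6 in mutant 1 and 90.3 in mutant 2. The groups did not overlap, and each group's libraries lay within 1.36-fold of each other. The means were 8.97 ± 1.26 and 78.5 ± 16.8 RPM (± SD; every group has n = 2 libraries), an 8.74-fold ratio. The log2 fold change, on the log2(RPM + 1) scale used throughout, was 2.98 (SE 0.28). Against control 1 alone it was 2.85 and against control 2 alone 3.11. The Ntn1 gene spans 68209364 to 68400823 of chromosome 11, minus strand (GENCODE M21, GRCm38; gene positions here and below, since amplicon positions were not used). Whether more cells of a type or more RNA per cell gave a higher value cannot be told apart in bulk RNA.

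Ntn4 encodes netrin-4, a basement membrane netrin that binds laminin. Its amplicon read 85.4 and 21.7 RPM in controls 1 and 2, and 181 and 174 RPM in mutants 1 and 2. Both mutants were above both controls, but the controls differed from each other by 3.95-fold, against 1.04-fold between the mutants. The log2 fold change of 2.01 (SE 0.63) was accordingly 1.04 against control 1 alone and 2.98 against control 2 alone. The mutant mean was 2.07 times control 1 and 8.18 times control 2. Ntn4 lies on chromosome 10 at 93640681 to 93747207 (plus strand).

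The netrin receptors went different ways. Neo1 encodes neogenin, a receptor of the Dcc class that binds netrins and repulsive guidance molecules. It was the most evenly measured of the 9 genes, with 152 and 149 RPM in controls 1 and 2 and 389 and 342 RPM in mutants 1 and 2. All mutant values were above all control values, and the 2 controls differed by 1.02-fold. The means were 150 ± 2.08 and 366 ± 32.7 RPM, a 2.43-fold ratio, and the log2 fold change was 1.27 (SE 0.2), 1.26 against control 1 and 1.29 against control 2. Neo1 lies on chromosome 9 at 58874687 to 59036441 (minus strand).

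Unc5b encodes a repulsive netrin receptor that is also a dependence receptor and is known from endothelial tip cells. It stood at 156 and 185 RPM in controls 1 and 2 and at 72.1 and 86.1 RPM in mutants 1 and 2. Both mutants were below both controls, and within each group the libraries lay within 1.2-fold of each other. The control mean of 171 ± 20.7 RPM was 2.16 times the mutant mean of 79.1 ± 9.92 RPM (log2 fold change -1.10, SE 0.22), and the log2 fold change was -0.98 against control 1 and -1.22 against control 2. The 12 endothelial markers summed to 12.2 and 95.4 RPM in the controls and to 24.8 and 47.1 RPM in the mutants, with 8 of 12 at or above 1 RPM in some library and Tie1 and Sox17 at 0 in all. The endothelial sums overlapped between the groups while Unc5b did not, and their part in the Unc5b values was not tested. Unc5b lies on chromosome 10 at 60762593 to 60831581 (minus strand).

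Unc5c, a second Unc5 receptor, showed no separation of the groups. Its values were 0.813 and 6.45 RPM in controls 1 and 2 (15 and 87 reads) and 2.23 and 6.13 RPM in mutants 1 and 2 (39 and 91 reads). The lowest and the highest of the 4 values were both controls. The log2 fold change of 0.39 (SE 0.79) became 1.41 against control 1 alone and -0.63 against control 2 alone. Without mutant 2 it was -0.18. Exons of the predicted gene Gm15688 overlap those of Unc5c on the opposite strand, and whether the reads were counted by strand is not given in the sources used here. Unc5c lies on chromosome 3 at 141465216 to 141834924 (plus strand).

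The Slit ligands stood moderately higher in the mutants, and the size differed with the control used. Slit2 read 88.4 and 43.3 RPM in controls 1 and 2 and 132 and 118 RPM in mutants 1 and 2. Slit3, the Slit with known roles in bone and its vessels, read 496 and 316 RPM in controls 1 and 2 against 588 and 694 RPM in mutants 1 and 2. For both genes the groups did not overlap, and control 2, the library with the most macrophage marker reads, was the lowest. Control 2 was also the lowest library for Ntn4, Ntn1 and Neo1, though the controls differed by only 1.22-fold for Ntn1 and 1.02-fold for Neo1. The part of macrophages in these values was not tested. The mutant mean of Slit2 was 1.41 times control 1 and 2.88 times control 2, and that of Slit3 was 1.29 times control 1 and 2.03 times control 2. The log2 fold change of Slit2 was 1.00 (SE 0.37), with 0.49 and 1.50 against controls 1 and 2. That of Slit3 was 0.69 (SE 0.3), with 0.36 and 1.01 against controls 1 and 2. Slit2 lies on chromosome 5 at 47983138 to 48307733 and Slit3 on chromosome 11 at 35121224 to 35708507, both on the plus strand.

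The Robo receptors were read with few reads and lay on opposite sides. Robo1, a main Slit receptor, stood at 10.5 and 8.01 RPM in controls 1 and 2 (193 and 108 reads) and at 1.60 and 4.71 RPM in mutants 1 and 2 (28 and 70 reads). The groups did not overlap, but the mutants differed from each other by 2.94-fold. The log2 fold change was -1.40 (SE 0.48), -1.57 against control 1 and -1.22 against control 2. With mutant 2 as the lone mutant library it was -0.83, and with mutant 1 as the lone one -1.96.

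Robo2 had no read in either control, which allows up to 0.163 RPM in control 1 and 0.222 RPM in control 2 (3 reads each). It had 19 reads in mutant 1 (1.09 RPM) and 20 in mutant 2 (1.35 RPM). Set against 3 reads over both controls, Robo2 was at least 12.9-fold higher in the mutants, and this bound covers counting error only. Robo2 passed the filter on low values (at least 1 RPM in at least 2 libraries) through the mutant libraries alone, so that the filter fixed its direction. Robo1 (72308306 to 73046095, plus strand) and Robo2 (73891839 to 74411825, minus strand) are neighbours on chromosome 16 with 846 kb between them.

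**Figure D1:**
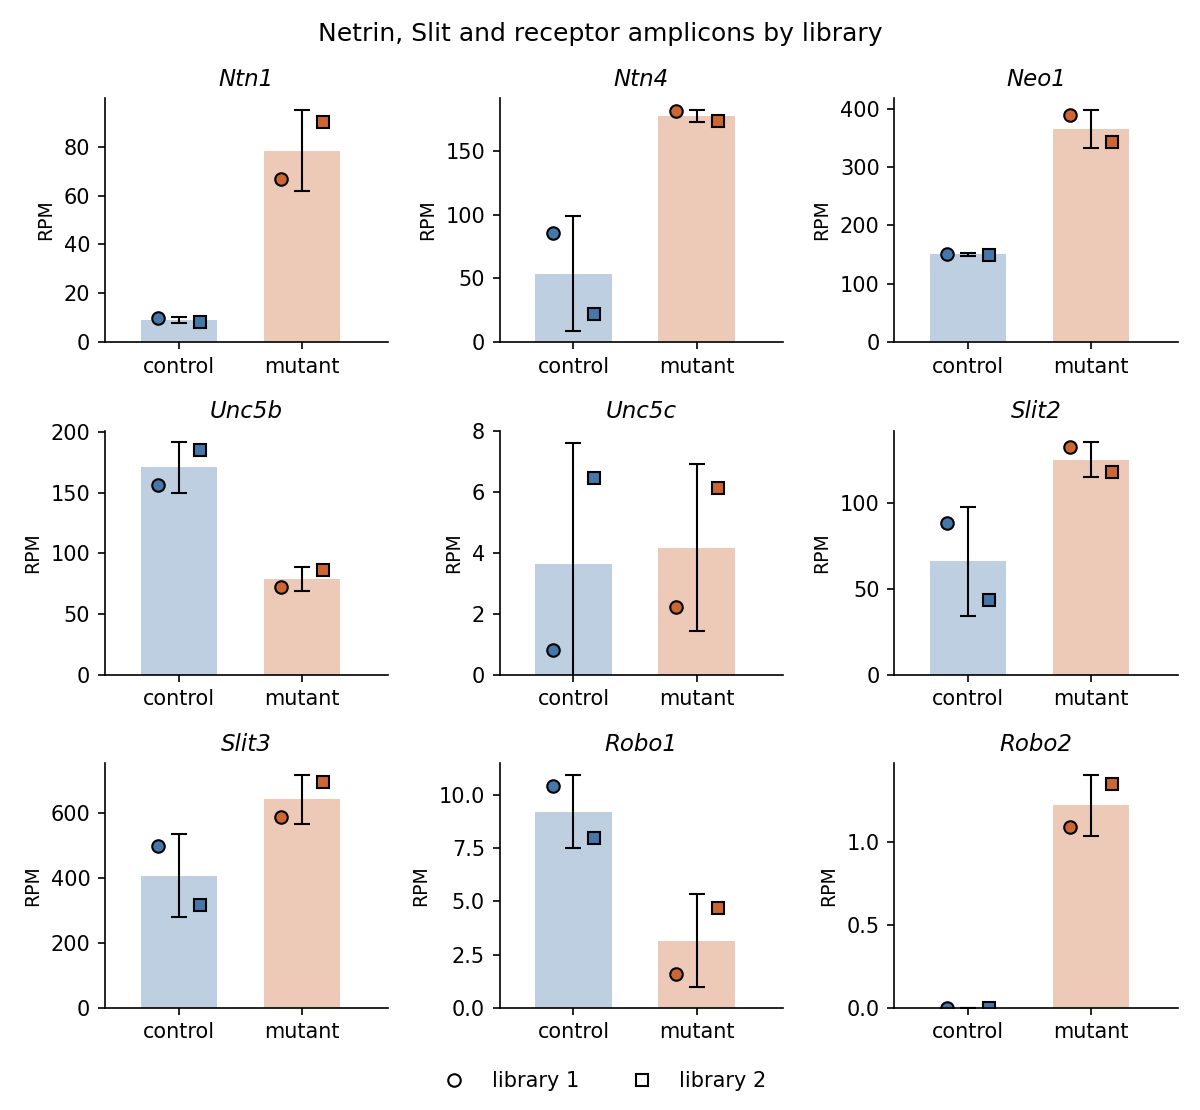
RPM of the 9 amplicons in each library; bars are group means, error bars the SD of 2 libraries, circles library 1 and squares library 2 of each group, with a linear axis from 0 for each gene (the lower error bar of Unc5c is cut at 0). Neo1 and Unc5b separate with little spread. The lowest value of Ntn1, Ntn4, Neo1, Slit2 and Slit3 is in control 2, Unc5c overlaps, and Robo2 has no read in the controls.

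Read as a set, 6 of the 9 genes had both mutants above both controls (Ntn1, Ntn4, Neo1, Slit2, Slit3 and Robo2), 2 had both below (Unc5b and Robo1) and Unc5c overlapped. Over all 11638 tested genes these shares were 30.6% above and 21.1% below. All 9 passed the filter, and the median of their log2 fold changes was 1.00, beside 0.08 over all tested genes. The filter fixed the side of Robo2; without it 5 genes lay above and the median was 0.84, and with Robo2 at its bound the median was 1.00. Under limma, with Benjamini-Hochberg adjustment over all tested genes and a threshold of 0.05, 1 of the 9 was called, Ntn1, which rose. This stood beside 2.3% of all tested genes called, 1.73% higher and 0.576% lower. Since the genes were chosen with this comparison known, nothing further is read from these counts.

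The count of calls depended on the libraries entered. With control 1 left out, 6 of the 9 were called (Ntn1, Ntn4, Neo1, Slit2 and Slit3 higher, Unc5b lower), beside 22.4% of the genes then tested. With control 2 left out, 4 were called (Ntn1, Ntn4, Neo1 and Unc5b), beside 17.9%. In these fits the lone control is assumed to vary like the mutants, which differed little from each other. With either mutant left out, limma called no gene of the table, the 8 members then tested included.

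**Figure D2:**
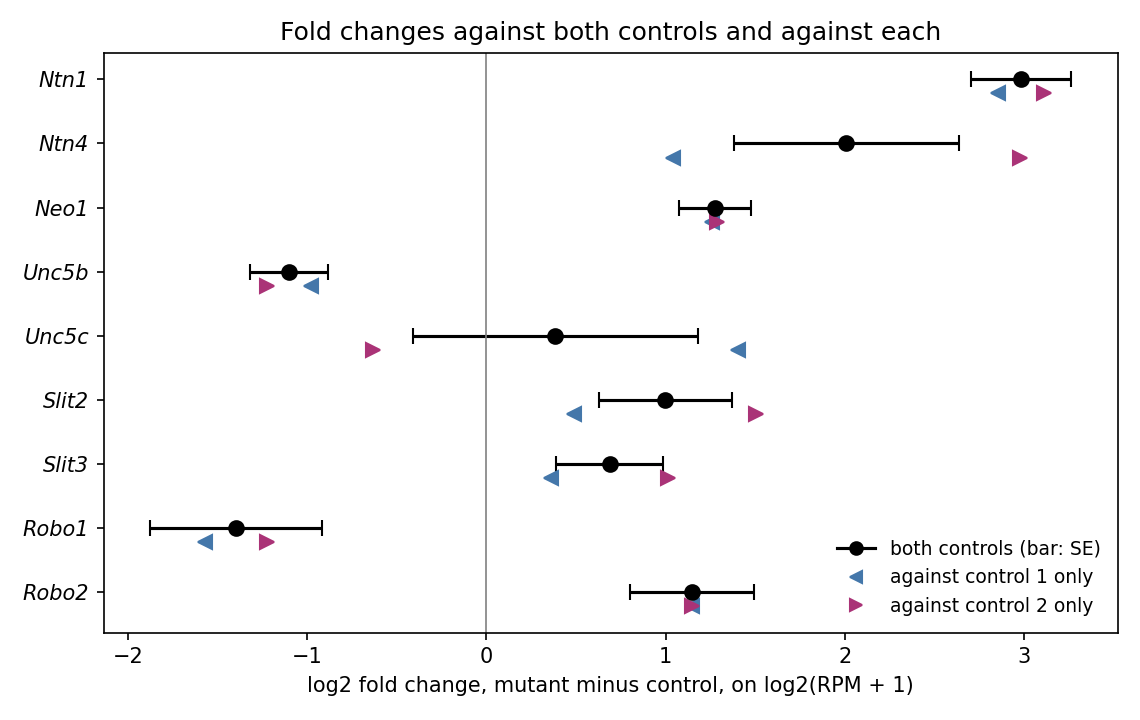
Log2 fold change (mutant minus control, on log2(RPM + 1)) of the 9 genes: black points with SE bars against both controls, blue triangles against control 1 only, purple triangles against control 2 only. Ntn1, Neo1, Unc5b and Robo1 give similar values against either control, Ntn4, Slit2 and Slit3 are larger against control 2, and Unc5c changes sign. Robo2 had no read in either control, so its values against both are equal by construction. Their size depends on the 1 RPM added to each value.

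The rest of the 2 pathways was read from a wider list of 61 symbols (Hfe2 and Hjv are 1 gene). Of these 59 had a row and 44 were tested. This list too was chosen with earlier results of these data known, so its p-values and calls are a description. Of the 44 tested, 1 rose, 0 fell and 43 did not pass (limma, adjusted over all tested genes), beside 2.3% of all tested genes called. Their log2 fold changes had a median of 0.12, also with Unc5a, described below, at its bound. Both mutants lay above both controls for 19 and below for 11 of them, beside 30.6% and 21.1% of all tested genes. The 11 below include Unc5a, whose side the filter fixed. By class, 1 of 6 tested ligands and ligand-like genes was called, 0 of 8 receptors and binding partners, and 0 of 30 intracellular partners, counts too small to set apart from the 2.3% over all genes. At an unadjusted limma p below 0.05 there were 11 of the 44, Unc5a among them, beside 17.9% of all tested genes. On the recovered reads edgeR called 0 (0.799% of all genes) and DESeq2 called 7, again with Unc5a (9.37% of all genes).

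The gene that rose was Ntn3, which encodes another secreted netrin. It stood at 2.93 and 2.37 RPM in controls 1 and 2 and at 15.3 and 17.4 RPM in mutants 1 and 2. All mutant values were above all control values. The ratio of means was 6.18, and the log2 fold change was 2.25 (SE 0.31, limma adjusted p = 0.0388). The call was kept with either control left out and was lost with either mutant left out, with no filter, and in edgeR. Ntn5 (at most 0.404 RPM) had no read in 3 of the 4 libraries and was not tested.

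No other tested member of the families passed the test. Ntng2, which encodes a membrane-anchored netrin, stood at 40.9 and 14.2 RPM in controls 1 and 2 against 20.2 and 15.4 RPM in mutants 1 and 2 (log2 fold change -0.44, adjusted p = 0.717). Its groups overlapped, and the log2 fold change was -1.17 against control 1 alone, where it was called, and 0.30 against control 2 alone, where it was not. The third Slit, Slit1, stood at 2.55 and 4.15 RPM in controls 1 and 2 against 2.29 and 2.22 RPM in mutants 1 and 2 (log2 fold change -0.39, adjusted p = 0.627). Both mutants lay below both controls for Slit1, with a log2 fold change of -0.12 against control 1 and -0.66 against control 2. Dcc, the classical attractive netrin receptor, had no read in any library, which allows at most 0.222 RPM. Ntng1, Unc5d, Robo3 and the endothelial receptor gene Robo4 stayed at or below 0.519 RPM and were not tested.

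Unc5a, another Unc5 receptor, stood at 9.27 RPM in control 1 and 1.26 RPM in control 2 and had no read in either mutant. Against 3 reads over both mutants it was at least 63.4-fold lower, a bound that rests on control 1 (171 of the control reads, against 17 in control 2) and is 13.6-fold with control 2 alone. It did not pass the test (adjusted p = 0.22). It reached the filter through the controls alone, so its direction was fixed by the filter.

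Among partners inside the cell, the nearest to the threshold were Ablim1, Myo10 and Abl2. Ablim1 encodes an actin-binding LIM protein and stood at 18.5 and 3.34 RPM in controls 1 and 2 against 195 and 196 RPM in mutants 1 and 2 (log2 fold change 4.42, SE 0.7, adjusted p = 0.0529). Myo10, whose myosin carries netrin receptors into filopodia, stood at 156 and 192 RPM in controls 1 and 2 against 483 and 408 RPM in mutants 1 and 2 (log2 fold change 1.35, SE 0.23, adjusted p = 0.0593). Abl2, a kinase gene of the Abl pair that acts below Robo receptors, stood at 22 and 11.1 RPM in controls 1 and 2 against 2.81 and 1.75 RPM in mutants 1 and 2 (log2 fold change -2.36, SE 0.45, adjusted p = 0.0754). In all 3 the groups did not overlap, and all 3 were called with either control left out. Ablim1 stood at a log2 fold change of 3.34 against control 1 and 5.50 against control 2.

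Of the other genes of the wider list that the naming rule picked, none passed the test. The small GTPase gene Cdc42 stood at 1226 ± 111 RPM in controls against 1077 ± 38.2 RPM in mutants (adjusted p = 0.748). The semaphorin receptor gene Plxna1, whose product also binds a Slit fragment, stood at 333 ± 169 and 500.2 ± 12 RPM (limma adjusted p = 0.426). Its log2 fold change was 0.15 against control 1 alone and 1.22 against control 2 alone. Dag1, the dystroglycan gene, whose product binds Slits in the matrix, stood at 249 ± 66.8 and 479 ± 93.2 RPM (limma adjusted p = 0.191). For Dag1 the log2 fold change was 0.68 against control 1 alone and 1.23 against control 2 alone. The neogenin ligand gene Rgma stood at 48.4 ± 14 and 83 ± 26.6 RPM (limma adjusted p = 0.327). For Rgma the log2 fold change was 1.05 against control 1 alone and 0.47 against control 2 alone. Rgmb, also a neogenin ligand gene, stood at 88.6 ± 19.7 and 68.7 ± 3.18 RPM (limma adjusted p = 0.517). For Rgmb the log2 fold change was -0.12 against control 1 alone and -0.57 against control 2 alone. Neither ligand gene passed, and neither did their receptor gene Neo1. Both mutants lay above both controls for Rgma, as for Neo1, and below both controls for Rgmb.

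**Figure D3:**
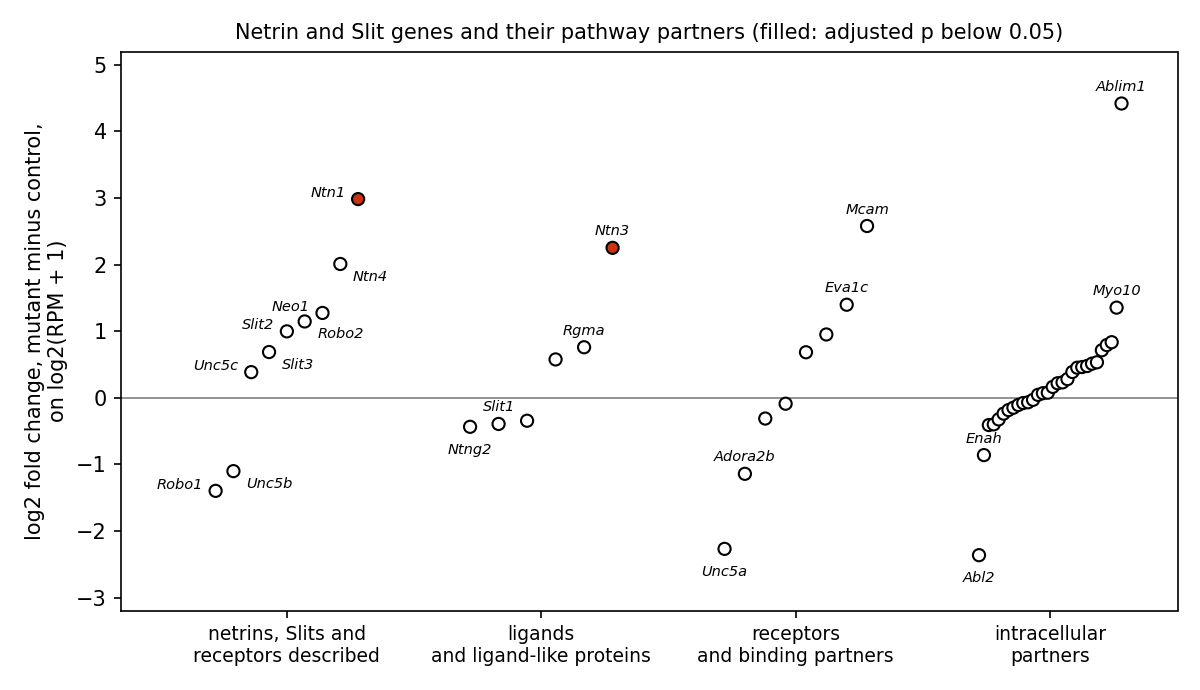
Log2 fold change (mutant minus control, on log2(RPM + 1)) of each tested gene in 4 columns: the 9 genes described, then the 3 classes of the wider list, sorted within a column; filled points have an adjusted p below 0.05 in limma. Ntn1 and Ntn3 are the 2 filled points, and the 30 intracellular partners centre near 0 with Ablim1 and Abl2 at the ends.

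Markers of other cell types differed between libraries as well. Pericyte markers summed to 48.4 and 103 RPM in the controls and to 298 and 398 RPM in the mutants. Of the 8 markers 5 reached 1 RPM in some library and Higd1b was at 0 in all, and the sum rested on Cspg4, Notch3 and Mcam, which were named with their values known. Cspg4 rose (limma adjusted p = 0.0252), from 15.1 and 22 RPM in controls 1 and 2 to 111 and 157 RPM in mutants 1 and 2. Notch3 rose as well (limma adjusted p = 0.0325), from 17.8 and 10.9 RPM to 80.2 and 104 RPM. Mcam, which is also in the wider list as a netrin-binding receptor, read 8.45 and 41.8 RPM against 105 and 135 RPM (adjusted p = 0.164), a log2 fold change of 3.67 against control 1 and 1.49 against control 2. Other pericyte markers stood lower in the mutants: Abcc9 read 6.23 and 0.89 RPM against 0 and 0.067 RPM, and Kcnj8 read 0.867 and 0.593 RPM against 0.115 and 0.067 RPM. Cox4i2 read 26.2 RPM in control 2 and at most 0.337 RPM elsewhere. The pericyte sum was higher in both mutants, as were Ntn1, Ntn4 and Neo1, and its part in their values was not tested. Schwann and neural markers summed to 368 and 396 RPM in controls 1 and 2 against 540 and 392 RPM in mutants 1 and 2. Ncam1 made up 335 and 356 RPM and 470.2 and 331 RPM of these sums, with Cdh19 at 0 in all libraries. Keratinocyte markers summed to at most 14.8 RPM in any library, with Krt5 and Krt1 at 0. Skeletal muscle markers summed to 59.7 and 118 RPM in controls 1 and 2 against 51.3 and 129 RPM in mutants 1 and 2, with Pax7, Myod1 and Ckm at 0.

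The genes with profiles closest to the leading members over the 4 libraries were found by Euclidean distance between centred log2(RPM + 1) values, among 10915 tested genes, leaving out the 9 themselves and names of the kind given to predicted or unnamed genes. Nearest to Ntn1 were Fbln5, an elastic fibre gene (distance 0.21), Igfbp4, an insulin-like growth factor binding protein gene (0.26), and St8sia2, a polysialyltransferase gene (0.28). Fbln5 stood at 67.1 and 47.4 RPM in controls 1 and 2 against 350 and 499.8 RPM in mutants 1 and 2. St8sia2 stood at 0.108 and 0 RPM in controls 1 and 2 against 7.27 and 11 RPM in mutants 1 and 2. It reached the filter through the mutants alone, so the filter fixed its side. The distance of St8sia2 from Ntn1 depends on the 1 RPM added to each value. Nearest to Unc5b were Chaf1b, a chromatin assembly factor gene (0.11), and the zinc finger gene Zfp811 (0.14). Chaf1b stood at 15.6 and 20.5 RPM in controls 1 and 2 against 6.93 and 8.08 RPM in mutants 1 and 2. With 4 libraries in 2 groups, a small distance mainly means a like size and order of the group difference in log2(RPM + 1).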

How the data were processed

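RNA of 4 libraries was read with an Ion AmpliSeq mouse transcriptome panel, per the labels' protocols, which measures a gene through 1 short amplicon. The authors deposited 1 table of RPM values, each column summing to the same total. How reads were aligned, counted and filtered, and on which build, is not given in the sources used here. An RPM value depends on the amplicon as well as the gene, so tests compare libraries within a gene; the naming rule alone ranked genes by RPM. Low values are whole multiples of what 1 read is worth, and 100% of non-zero values came out as whole reads within 0.0015 RPM.

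The 11638 genes that reached 1 RPM in 2 or more libraries were fitted on log2(RPM + 1) with limma 3.58.1 (R 4.3.3; lmFit, then eBayes with a mean trend). Tests were two-sided and Benjamini-Hochberg adjusted over all 11638. That fit was checked on simulated reads, in which both groups had the same spread for each gene, unlike the libraries here. Alternatives were pseudocounts of 0.5 and 5, other filters and scalings, a fit without the trend or with a replicate block, leaving out each library, and edgeR 4.0.16 and DESeq2 1.42.0 on the recovered reads, which called 93 and 1091 genes. The members, the wider list and the markers were chosen with earlier results of these data known. The rule for named genes was all members, then genes of the wider list that passed, had the 4 smallest p-values, belonged to the families or had the 2 highest mean values of their class, then the 3 nearest profiles to the leading member in each direction. Of the genes this rule names, 1 is not reported here. Amplicon reads carry no molecular identifiers, so floors of 3 reads reflect counting error alone.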

Additional observations from a re-analysis of the deposited data

How the results depend on the processing

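Over 132 refitted member values, 113 kept direction and side of the threshold, 15 passed it where they had not, 2 lost it (Ntn1 without either mutant) and 2 reversed. The reversals were both of Unc5c, which ranged from -0.63 to 1.41 when 1 library was left out. Neo1 kept the narrowest range over all alternatives (1.18 to 1.37), and Robo2, at few reads, the widest (0.31 to 7.27, the latter from edgeR, where it depends on the prior count). The members' median fell to 0.68 with a pseudocount of 5, which shrinks low genes. Calls among the 9 members numbered 2 with a pseudocount of 5, a filter at 5 RPM or quantile scaling (Ntn1 and Neo1), 5 with DESeq2, and 0 to 6 with 1 library left out. Calls in the wider list numbered 2 with a pseudocount of 5 or a filter at 5 RPM, 0 with no filter, 3 with quantile scaling, 0 with edgeR (10 at an unadjusted p below 0.05), 7 with DESeq2, and 0 to 14 with 1 library left out. Over all genes the 268 calls became 74 with no filter, 93 with edgeR, 1091 with DESeq2 and 0 to 2556 with 1 library left out; without mutant 1 or mutant 2, 689 and 670 genes had an unadjusted p below 0.05. The 5 members called with DESeq2 were Ntn1, Ntn4, Neo1, Unc5b and Robo2, and the filter fixed the side of Robo2. Over all tested genes there were 287 calls with a pseudocount of 5 and 295 with quantile scaling. With a filter at 5 RPM there were 289 among 9652 tested genes. With edgeR 2022 of all tested genes had an unadjusted p below 0.05. The cause of the differences between settings was not tested. With the replicate number as a replicate block there were 424 calls over all genes, 1 among the members and 4 in the wider list (Abl2, Ablim1, Mcam and Ntn3). Same-numbered libraries deviated together only weakly (r = 0.16 across genes), and with 2 pairs the numbers were not taken to pair the libraries. Quantile scaling moved the median of all genes from 0.08 to -0.03, and no member changed direction under any scaling. Robo2 gave no value without either mutant or with a filter at 5 RPM. With 2 libraries per group the spread is poorly known, and below about 10 RPM (Unc5c, Robo1, Robo2 and the controls of Ntn1) read counts also limit precision.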
